A study of Mus musculus with 6 samples.

Results

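The genes described here build cholesterol and fatty acids. They are 37 genes named by function: enzymes of sterol synthesis, the proteins that sense and carry sterols, enzymes that make and activate fatty acids, and enzymes that desaturate and lengthen them. Every probe set whose platform annotation names 1 of these genes alone was taken, which gave 87 probe sets for 36 of the 37 genes, of 45037 probe sets that are not controls. No probe set names Acat2, an acetyl-CoA acetyltransferase of the first step, alone, so its expression was not analysed here.

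The cells are 393P, a mouse lung cancer line. One group of 3 cultures carried a Zeb1 vector that is expressed constitutively and stably, Zeb1 being a zinc-finger repressor of epithelial genes, and the other group of 3 cultures carried the empty pcDNA vector. All 6 cultures were transfected lines grown in the same serum-containing medium, so the groups share the parent line, the transfection and the serum, which itself supplies cholesterol and fatty acids. The sources used here do not say whether each group is 1 clone or a pool of transfected cells, and p-values measure only the spread between these cultures. RNA of each culture was read on 1 Affymetrix array.

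Cells make cholesterol from acetyl-CoA through mevalonate, isoprenoid pyrophosphates, squalene and lanosterol. The transcription factor SREBP2, encoded by Srebf2, is known for driving the genes of that chain, and SREBP1, encoded by Srebf1, is known for driving fatty acid synthesis and desaturation. Both are held in the endoplasmic reticulum by Scap and the Insig proteins until sterols run low, and are then cut free in the Golgi. Tumour cells are known to need these lipids for new membrane.

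All values below are log2 MAS5 signals as deposited, with signals under the pooled 25th percentile (4.45) raised to it. A gene is read by the brightest of its tested probe sets, and a probe set entered the test if 3 or more of the 6 arrays had it at or above the median of that array. A gene is called higher or lower where limma gave an adjusted p under 0.05, adjusted over all 23391 tested probe sets. The SE beside a log2 change is the moderated standard error from limma. Signals of different probe sets are not compared with each other.

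Across tested probe sets r was 0.979 to 0.983 between arrays of the same group, and 0.879 to 0.885 between a Zeb1 vector and a control vector array. Each array had been scaled to a trimmed mean linear signal of 500. Zeb1 read 9.71, 9.59 and 9.78 on the Zeb1 vector arrays, against 4.45, 4.45 and 4.50 on the control vector arrays, where 2 of the 3 lay at the floor, so the change of 5.23 is a lower bound. The keratins of simple epithelium Krt8, Krt18 and Krt19 read 13.33 to 14.80 on all 6 arrays. Of the 5 epithelial markers 3 were lower in Zeb1 vector cells (Epcam, Cdh1 and Krt8), and the summed linear signal of the list was 57519 to 61741 there, against 89443 to 95380 in control vector cells. Their part in the lipid results was not tested. The lung lineage factor Nkx2-1 lay near the floor in both groups, at 4.45 to 4.99 in Zeb1 vector and 4.45 to 5.13 in control vector cells. The alveolar surfactant gene Sftpc read 5.80 to 6.75 over the 6 arrays and was not called. Sftpa1 read 6.28 to 6.49 in Zeb1 vector and 4.62 to 6.26 in control vector cells. Its change of 0.89 was not called (adjusted p = 0.117). Of the 9 leukocyte, endothelial and fibroblast markers 3 were tested and 0 were called. Over the 6 arrays these 3 read above the floor, Cd68 at 7.37 to 7.73, Kdr at 7.14 to 8.27 and Col1a2 at 6.13 to 7.24. Pecam1 and the dimmer probe sets of Col1a2 were at the floor on every array.

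Sterol synthesis and fatty acid desaturation moved apart in Zeb1 vector cells. Of 17 tested sterol synthesis genes 14 were lower, 1 was higher and 2 were not called. Of 7 desaturation and elongation genes 5 were higher and 0 were lower, and of 6 fatty acid synthesis and activation genes 3 were higher and 0 were lower. The 6 genes of sterol sensing and transport divided, with 2 higher and 1 lower. Over all 11893 tested genes 25.6% were higher and 23.2% were lower, so 48.8% were called, against 72.2% of the 36 members. The share called was 88.2% in sterol synthesis and 71.4% in desaturation and elongation. It was 50% in sensing and transport and 50% in fatty acid synthesis and activation, near the share of all tested genes. At 2-fold or more, only 2 of the 36 members were called higher and 3 lower, where 8.95% and 6.78% of all tested genes were. The median log2 change was -0.57 over the sterol synthesis genes, 0.23 over sensing and transport, 0.28 over fatty acid synthesis and activation, and 0.32 over desaturation and elongation, beside 0.01 over all tested genes. Because each array reads the RNA of a whole culture, a change in all cells and a change in the share of cells that make a transcript cannot be told apart.

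**Figure D1:**
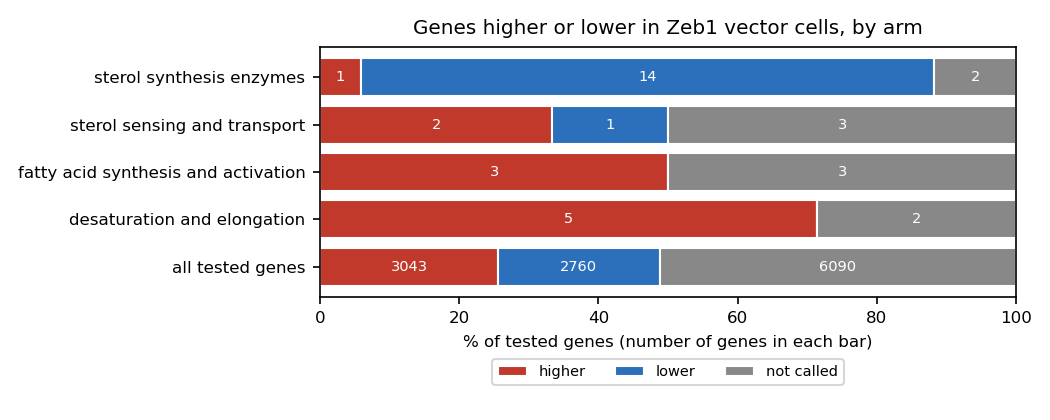
Share of tested genes in each group of lipid genes, and in all tested genes, that were higher (red), lower (blue) or not called (grey) in Zeb1 vector cells, with the number of genes printed in each bar. The blue part covers 14 of 17 sterol synthesis genes and is missing from the fatty acid, desaturation and elongation bars.

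Counted by probe set, 76 of the 87 were tested, and 23 were called higher and 24 lower, which is 61.8%, where 43.8% of all tested probe sets were called. At 2-fold or more, 5 of the 76 were called higher and 7 lower, where 8.58% and 5.88% of all tested probe sets were. The arrays of both groups were fully apart for 68.4% of the 76 probe sets, and for 53.4% of all tested probe sets. In the sterol synthesis enzymes 23 of 34 tested probe sets were lower and 3 higher, where 20.4% of all tested probe sets were lower and 23.4% higher. In desaturation and elongation 7 of 18 were higher and 0 lower (38.9% called, below the 43.8% of all tested probe sets). In fatty acid synthesis and activation 7 of 13 were higher and 0 lower (53.8% called). None of the 76 tested probe sets had an array at the floor.

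**Figure D2:**
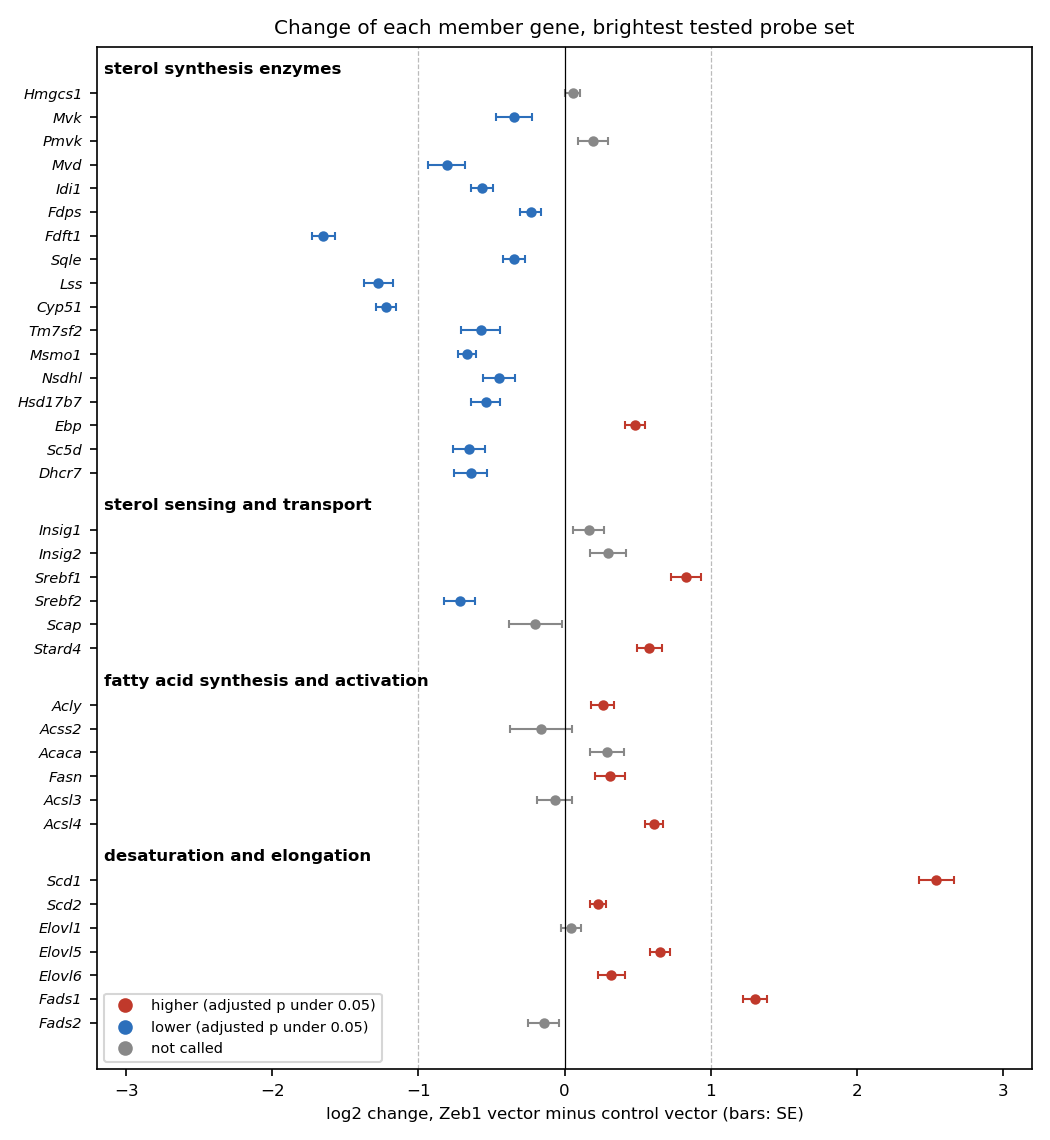
Log2 change (Zeb1 vector minus control vector) of each of the 36 genes, read by the brightest tested probe set, with SE as bars and dashed lines at a 2-fold change. Sterol synthesis genes lie left of 0 apart from Hmgcs1, Pmvk and Ebp, and Scd1 has the largest change, 2.55.

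The sterol chain opens with the steps to mevalonate and on to the isoprenoid pyrophosphates. Hmgcs1, the HMG-CoA synthase of the cytosol, had a log2 change of 0.06 (SE 0.0507) and was not called (adjusted p = 0.422). Of its 4 tested probe sets 1 was called, with a change of 0.17 (adjusted p = 0.0454), and the changes ran between -0.11 and 0.17. Pmvk, the phosphomevalonate kinase, had a change of 0.20 (SE 0.105, adjusted p = 0.166), although its Zeb1 vector arrays all lay above the control vector arrays. Its neighbours in the chain were lower. Mvk, the mevalonate kinase, read 8.66, 9.04 and 8.91 in Zeb1 vector cells, against 9.26, 9.17 and 9.21 in control vector cells, a change of -0.35 (SE 0.122, adjusted p = 0.0445). Mvd, the mevalonate diphosphate decarboxylase, read 8.64, 8.56 and 8.78 in Zeb1 vector cells, against 9.54, 9.59 and 9.25 in control vector cells. It was 1.75-fold lower (SE of the log2 change 0.126, adjusted p = 0.000576), and its other probe set was 1.66-fold lower. Neither gene's groups overlapped.

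Idi1, the isomerase that makes the allylic isoprenoid unit, read 11.28, 11.15 and 11.16 in Zeb1 vector cells, against 11.83, 11.66 and 11.80 in control vector cells. It was 1.48-fold lower (adjusted p = 0.000189), and its other probe set was 1.51-fold lower. Fdps, the farnesyl pyrophosphate synthase at the branch point towards protein prenylation, fell by 0.23 on the log2 scale (SE 0.0691, adjusted p = 0.0209), a small change whose arrays did not overlap. The calls of Mvk and Fdps were the least secure of the chain. Both were lost with no filter on dim probe sets (adjusted p = 0.101 for Mvk and 0.1 for Fdps). Mvk was also lost when any 1 array but Zeb1 vector replicate 2 was left out (adjusted p up to 0.156), and Fdps without Zeb1 vector replicate 1 or 2 or control vector replicate 1 or 3 (0.0536 to 0.0797).

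Read by the brightest probe sets, the largest falls of the chain were those of Fdft1, Lss and Cyp51. Fdft1, the squalene synthase that joins a pair of farnesyl units and so takes the first step used for sterols alone, read 10.35, 10.42 and 10.53 in Zeb1 vector cells, against 12.17, 12.07 and 12.01 in control vector cells. It was 3.14-fold lower, a log2 change of -1.65 (SE 0.0781, adjusted p = 1.99e-07), with a gap between the groups far wider than the spread within either. A second bright probe set of Fdft1 was 3.41-fold lower (adjusted p = 2.27e-07), and a dim one had a change of -0.55 (SE 0.47) and was not called. On the dim one Zeb1 vector replicate 2 read 4.79, near the floor, and without that array the change was 0.0463. Sqle, the squalene epoxidase, fell by only 0.34 (SE 0.0753, adjusted p = 0.00436). Lss, the cyclase that forms lanosterol, read 8.66, 8.84 and 8.82 in Zeb1 vector cells, against 10.00, 10.05 and 10.10 in control vector cells. It was 2.42-fold lower (log2 change -1.28, SE 0.0988, adjusted p = 5.55e-06), and its other probe sets had changes of -1.50 and -1.31, both called.

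Cyp51, the cytochrome that removes a methyl group from lanosterol, read 10.80, 10.67 and 10.68 in Zeb1 vector cells, against 11.98, 11.93 and 11.90 in control vector cells. It was 2.33-fold lower (log2 change -1.22, SE 0.0695, adjusted p = 6.88e-07), and its other probe sets were 1.91-fold and 1.88-fold lower. Fdft1, Lss and Cyp51 were the 3 sterol synthesis genes called at 2-fold or more, where 6.78% of all tested genes were called lower by that much. All 3 kept their calls under every alternative run, the 2-fold rule included.

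**Figure D3:**
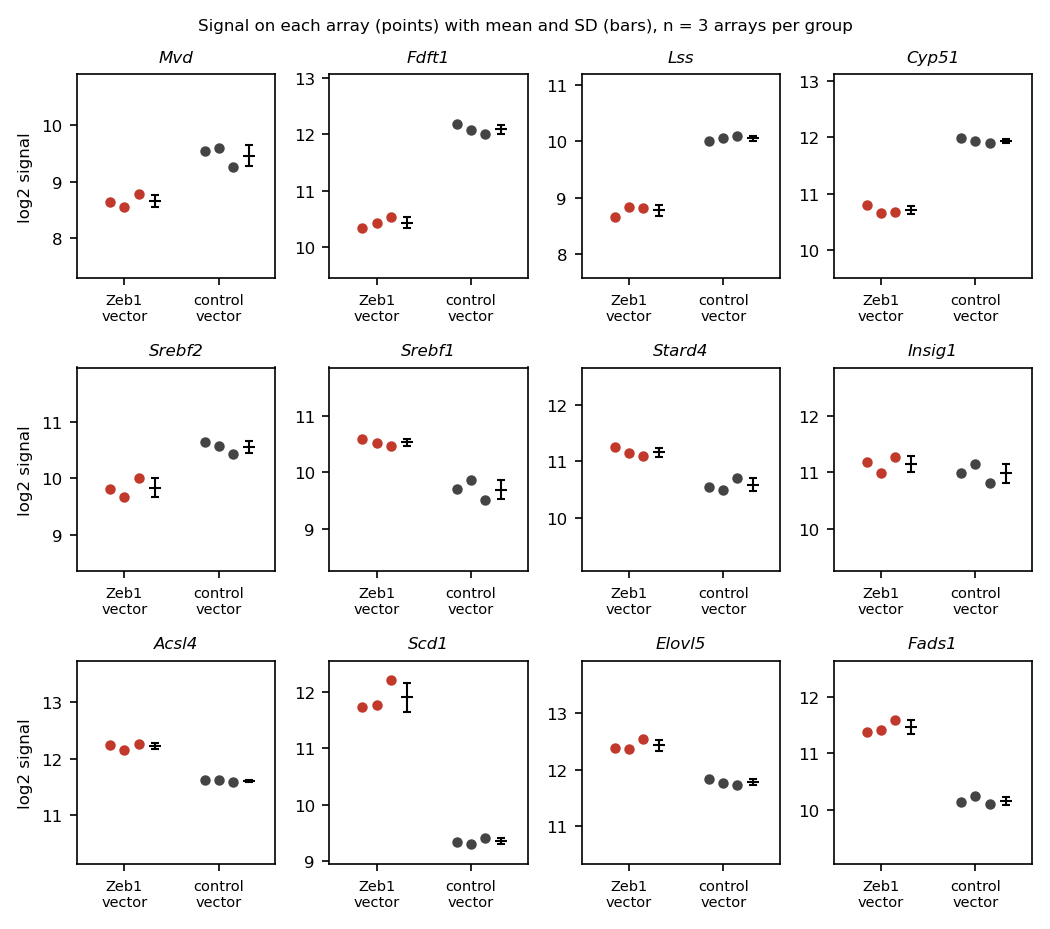
Log2 signal on each of the 3 Zeb1 vector arrays (red) and 3 control vector arrays (dark) for 12 genes, with the mean and SD as bars; every panel spans the same range of log2 units. Mvd, Fdft1, Lss, Cyp51 and Srebf2 are lower and Srebf1, Stard4, Acsl4, Scd1, Elovl5 and Fads1 higher in Zeb1 vector cells with no overlap, and Insig1 overlaps.

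Of the genes of the late steps, which turn lanosterol into cholesterol, Msmo1, Nsdhl, Tm7sf2, Hsd17b7, Sc5d and Dhcr7 were lower by less than 2-fold on their brightest probe sets, and Ebp was higher. Msmo1, the methyl sterol monooxygenase, read 12.23, 12.21 and 12.22 in Zeb1 vector cells, against 12.95, 12.79 and 12.91 in control vector cells, and was 1.59-fold lower (adjusted p = 1.5e-05). Nsdhl, its partner dehydrogenase, read 10.10, 10.09 and 10.22 in Zeb1 vector cells, against 10.76, 10.63 and 10.37 in control vector cells, and was 1.37-fold lower (adjusted p = 0.00753). Tm7sf2, a sterol reductase of the nuclear envelope and endoplasmic reticulum, read 8.99, 9.13 and 9.00 in Zeb1 vector cells, against 9.75, 9.77 and 9.33 in control vector cells, and was 1.49-fold lower (adjusted p = 0.00604). In Nsdhl and Tm7sf2 control vector replicate 3 lay nearest to the Zeb1 vector arrays, and both calls were lost with no filter (adjusted p = 0.0596 for Nsdhl and 0.0516 for Tm7sf2).

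Dhcr7, the reductase of the last step towards cholesterol, read 8.81, 8.96 and 8.97 in Zeb1 vector cells, against 9.47, 9.70 and 9.49 in control vector cells, and was 1.56-fold lower (adjusted p = 0.00102). Hsd17b7, a sterol ketone reductase, read 9.19, 9.34 and 9.19 in Zeb1 vector cells, against 9.70, 9.79 and 9.86 in control vector cells, and was 1.45-fold lower (adjusted p = 0.00147). Its 4 tested probe sets gave changes of -0.14 to -1.39, of which 2 were called. Without probe sets whose names end in _s_at, _x_at or _a_at the gene was read by another one, with a change of -0.30 (adjusted p = 0.118).

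Sc5d, a sterol desaturase, read 10.93, 10.89 and 11.00 in Zeb1 vector cells, against 11.76, 11.32 and 11.69 in control vector cells, and was 1.57-fold lower (adjusted p = 0.000908). Its 2 dimmer probe sets went the other way, 1 of them called higher with a change of 0.56 (SE 0.195, adjusted p = 0.0403), and the mean of its probe sets had a change of 0.06 (adjusted p = 0.66). Sc5d was the only member with probe sets called in both directions, and the call of that dimmer probe set was lost when any 1 of the 6 arrays was left out (adjusted p = 0.0579 to 0.111). Ebp, the sterol isomerase that also binds emopamil, was the sterol synthesis gene that rose. It read 11.92, 11.92 and 11.96 in Zeb1 vector cells, against 11.55, 11.39 and 11.42 in control vector cells, a 1.40-fold rise (log2 change 0.48, SE 0.067, adjusted p = 0.000281).

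The genes that sense sterols did not move as a body. Srebf2 read 9.81, 9.67 and 10.01 in Zeb1 vector cells, against 10.64, 10.58 and 10.43 in control vector cells. It was 1.65-fold lower (log2 change -0.72, SE 0.107, adjusted p = 0.00042), but its other probe set had a change of -0.16 (SE 0.103, adjusted p = 0.251) and overlapping groups. Srebf1, read by 1 probe set, was at 10.59, 10.52 and 10.48 in Zeb1 vector cells, against 9.71, 9.86 and 9.52 in control vector cells. It was 1.78-fold higher (log2 change 0.83, SE 0.103, adjusted p = 0.000126), so the pair of SREBP genes was called in opposite directions.

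Stard4, which carries cholesterol between membranes, read 11.25, 11.15 and 11.09 in Zeb1 vector cells, against 10.54, 10.50 and 10.71 in control vector cells, a 1.49-fold rise (adjusted p = 0.000375). Its other probe sets were also higher, by 0.61 and 0.42 on the log2 scale. Scap, the escort of the SREBPs, had a change of -0.20 (SE 0.181, adjusted p = 0.416), which ran from -0.40 without control vector replicate 3 to -0.0495 without control vector replicate 2 and was called in none of the 6 fits that left out 1 array. Insig1, a retention protein whose own gene is known as an SREBP target, read 11.18, 10.99 and 11.28 in Zeb1 vector cells, against 10.99, 11.14 and 10.82 in control vector cells, overlapping groups with a change of 0.17 (adjusted p = 0.238). For its paralogue Insig2 the brightest probe set had a change of 0.30 (SE 0.124, adjusted p = 0.0826), while its other 2 were higher by 0.72 (adjusted p = 0.00583) and 1.06 (adjusted p = 0.000474). The call on the brightest probe set was reached without control vector replicate 3 (adjusted p = 0.0404), and with the mean of probe sets the change was 0.69 (adjusted p = 0.000697).

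Fatty acid synthesis itself changed by small amounts. Acly, the citrate lyase that supplies cytosolic acetyl-CoA to both chains, rose by 0.26 (SE 0.0774, adjusted p = 0.0205), and its 3 tested probe sets were all called higher, by 0.21 to 0.31. Fasn, the fatty acid synthase, read 12.15, 12.27 and 12.56 in Zeb1 vector cells, against 11.96, 12.14 and 11.94 in control vector cells, a rise of 0.31 (SE 0.105, adjusted p = 0.0367). The lowest Zeb1 vector array and the highest control vector array of Fasn were almost level, and its change was 0.19 (adjusted p = 0.0983) without Zeb1 vector replicate 3. The Fasn call was also lost without Zeb1 vector replicate 2 (adjusted p = 0.0631) or control vector replicate 1 (0.108) or 3 (0.113), and that of Acly without Zeb1 vector replicate 3 (0.0584) or control vector replicate 3 (0.0844). Both were lost with no filter, at 0.208 for Fasn and 0.124 for Acly. With either Zeb1 vector replicate 3 or control vector replicate 3 left out, 3 in place of 7 probe sets of these 6 genes were called higher.

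Acaca, the acetyl-CoA carboxylase that makes malonyl-CoA, had a change of 0.29 (SE 0.115, adjusted p = 0.0669), and was called higher without Zeb1 vector replicate 1 (0.40, adjusted p = 0.0153). Acss2, which makes acetyl-CoA from acetate, had a change of -0.16 (SE 0.212, adjusted p = 0.586). Of the acyl-CoA synthetases, which activate fatty acids, Acsl4, known for its preference for arachidonic acid, read 12.25, 12.16 and 12.27 in Zeb1 vector cells, against 11.62, 11.63 and 11.59 in control vector cells. It was 1.53-fold higher (log2 change 0.61, SE 0.0604, adjusted p = 2.83e-05), and its other probe sets were higher by 1.02 and 0.63. Acsl3, a synthetase of lipid droplets, had a change of -0.07 (SE 0.12, adjusted p = 0.701), and its other tested probe set had 0.32 (adjusted p = 0.113).

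Desaturation held the largest change of all 36 genes. Scd1, the stearoyl-CoA desaturase that makes oleate and palmitoleate, read 11.74, 11.77 and 12.20 in Zeb1 vector cells, against 9.35, 9.31 and 9.42 in control vector cells. It was 5.84-fold higher (log2 change 2.55, SE 0.122, adjusted p = 2.1e-07), and its other probe set was 7.02-fold higher (adjusted p = 3.63e-08). The 3 control vector arrays lay close together and Zeb1 vector replicate 3 was the highest on both probe sets. Scd2, the paralogue with the same reaction, had a change of 0.23 (SE 0.0566, adjusted p = 0.00856) on its bright probe set, called, and of 0.21 and -0.01 on its other 2, not called. Scd2 was no longer called with no filter (adjusted p = 0.0666), with no intensity trend (0.0889) and with the mean of its probe sets (0.456). Whether the probe sets of Scd1 and Scd2 cross-react was not tested.

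Fads1, a desaturase of the chain that makes arachidonic and eicosapentaenoic acid, read 11.38, 11.41 and 11.59 in Zeb1 vector cells, against 10.13, 10.24 and 10.10 in control vector cells. It was 2.47-fold higher (log2 change 1.30, SE 0.0852, adjusted p = 1.77e-06), while a dimmer probe set had 0.28 (SE 0.159, adjusted p = 0.186). Fads2, the desaturase that acts before Fads1 and whose gene lies beside it, read 10.42, 10.57 and 10.79 in Zeb1 vector cells, against 10.68, 10.84 and 10.69 in control vector cells. Its groups overlapped, the change was -0.14 (SE 0.104, adjusted p = 0.31), and its other 2 probe sets had -0.21 and -0.76, neither of them called. Fads1 and Scd1 were the 2 members called higher by 2-fold or more, where 8.95% of all tested genes were.

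Among the elongases, which add carbons to fatty acids, Elovl5, which acts on polyunsaturated chains, read 12.38, 12.37 and 12.54 in Zeb1 vector cells, against 11.84, 11.76 and 11.74 in control vector cells. It was 1.57-fold higher (adjusted p = 3.84e-05), and 1.84-fold on its other probe set. Elovl6, which lengthens palmitate to stearate, rose by 0.32 (SE 0.093, adjusted p = 0.0188), and leaving out Zeb1 vector replicate 1 (adjusted p = 0.0531) or 2 (0.0774) or control vector replicate 1 (0.0722) ended that call. Its dimmer tested probe set had 0.14 (adjusted p = 0.402), and with the mean of both the change was 0.23 (adjusted p = 0.0613). Elovl1, which makes very long saturated chains, had a change of 0.04 (SE 0.0688, adjusted p = 0.648), and 0 of its 4 tested probe sets were called.

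Of the 36 genes 24 had more than 1 tested probe set. In 19 of the 24 all tested probe sets changed with 1 sign, and in 10 every tested probe set was called the same way. Those 10 include Mvk, Mvd, Idi1, Lss, Cyp51, Stard4, Acly, Acsl4, Scd1 and Elovl5. On the brightest probe set all Zeb1 vector arrays lay above all control vector arrays in 14 of the 36 genes and below them in 15, and the arrays of 58.2% of all tested genes were apart in this way. All 26 called genes were among these genes. The median SD within groups was 0.105 over the members' brightest probe sets. It was 0.175 over all tested probe sets, which include the dimmer ones of each gene, so these values are not of like sets.

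**Figure D4:**
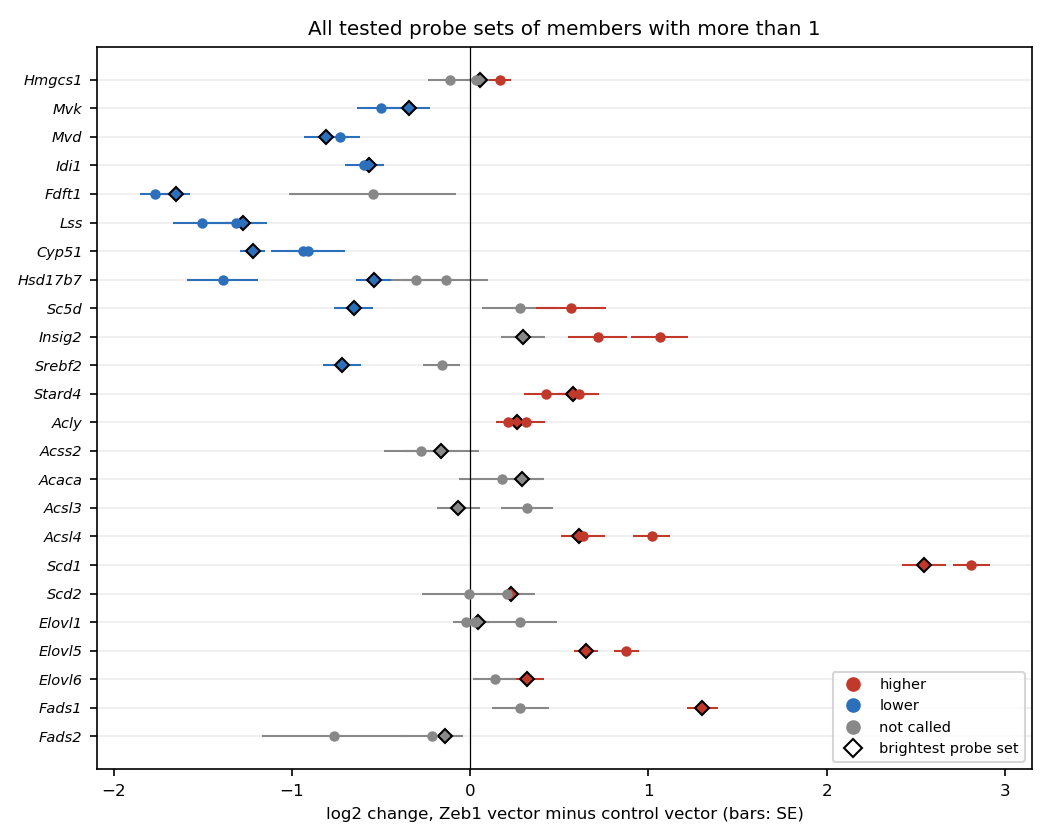
Log2 change with SE of every tested probe set of the 24 genes that had more than 1, coloured by call; the diamond marks the brightest. Probe sets of Lss, Cyp51, Scd1, Elovl5 and Acsl4 lie on 1 side of 0, and those of Sc5d lie on both.

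Among neighbouring lipid genes outside the 37 the calls went both ways. Of 12 tested genes of isoprenoid branches, sterol export and lysosomal sterol release 4 were higher and 0 lower, so 33.3% were called, against 48.8% of all tested genes. Abca1, the exporter of cholesterol to lipoproteins, read 7.68, 7.95 and 8.31 in Zeb1 vector cells, against 5.65, 6.64 and 6.79 in control vector cells, a change of 1.62 (SE 0.312, adjusted p = 0.00207). Lipa, the lysosomal acid lipase that frees cholesterol from its esters, was 2.10-fold higher (adjusted p = 0.000396), and its 2 other probe sets, dimmer over the 6 arrays, had changes of 2.88 and 4.14, the last with a control vector array at the floor. The other 2 that rose were Ggps1, the synthase of geranylgeranyl pyrophosphate, by 0.45, and Tmem97, an endoplasmic reticulum protein that binds sterols, by 0.39.

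Of 11 tested genes of fatty acid supply and glyceride synthesis 2 were higher and 2 lower, or 36.4% called, again below the 48.8% of all tested genes. Dgat2, which makes triglyceride, read 7.71, 7.81 and 7.99 in Zeb1 vector cells, against 9.43, 9.51 and 9.53 in control vector cells, and was 3.14-fold lower (adjusted p = 3.93e-06). Agpat2, an acyltransferase earlier in the same chain, was 1.91-fold lower (adjusted p = 1.95e-05). Me1, the malic enzyme that makes NADPH for lipid synthesis, was 1.97-fold higher (adjusted p = 1.86e-05), and Acsl5 rose by 0.30. Fads3 was not called on its brightest probe set (change -0.17, adjusted p = 0.0686), but its others were called lower, with changes of -0.55 and -0.96. Elovl7 was not called on its brightest probe set either, and some dimmer ones were called higher, by 0.73 and 0.66. Of 8 genes of mitochondrial fatty acid oxidation 3 were higher and 2 lower, or 62.5% called, where 25.6% of all tested genes were higher and 23.2% lower. Acadvl, the very long chain acyl-CoA dehydrogenase, was 2.85-fold higher (adjusted p = 1.27e-06) and Acaa2, the last thiolase of the cycle, 2.11-fold (adjusted p = 3.42e-06), whereas Hadha and Hadhb, the subunits of the trifunctional protein, fell by 0.31 and 0.38.

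Promoter sequence was looked at because 14 of the 17 tested sterol synthesis genes were called lower. RefSeq windows from 250 bases before to 50 after a gene's start (GRCm38.p6) were held for 30 of the 37 genes, Acat2 included, in 39 windows. No window was held for Fdft1, Fdps, Sqle, Stard4, Scd1, Scd2 or Fads1. The search therefore leaves out the largest fall (Fdft1) and the largest rises (Scd1 and Fads1). On both strands they were searched for TCACNCCAC, a form of the sterol regulatory element bound by SREBPs, for CCAAT, the box of NF-Y, which is known to act beside SREBPs, and for CACCTG, an E-box form bound by Zeb factors. The CCAAT box stood in a window of 14 of 15 sterol synthesis genes (93.3%), 4 of 5 sensing and transport genes, 4 of 6 fatty acid synthesis and activation genes and 2 of 4 desaturation and elongation genes, where 41.1% of the 27025 genes with a window held it. The sterol synthesis gene without it was Acat2, which has no expression value here. By call, the box stood in 11 of 11 sterol synthesis genes that were lower, 2 of 2 not called and 1 of 1 higher. Every sterol synthesis gene with a value and a window held the box, so these counts cannot show a link to the direction. Over all members with a window and a value it stood in 12 of 12 lower genes, 5 of 7 higher and 7 of 10 not called. The exact TCACNCCAC form stood in 1 of the 30 genes, Hmgcs1, and in 1.44% of all genes. CACCTG stood in 7 of 30 genes (23.3%) and in 22.6% of all genes. By function it stood in 3 of 15 sterol synthesis genes (Lss, Msmo1 and Pmvk), 3 of 5 sensing and transport genes (Insig2, Srebf1 and Srebf2), 0 of 6 fatty acid synthesis and activation genes and 1 of 4 desaturation and elongation genes (Elovl1). Within sterol synthesis CACCTG stood in 2 of 11 lower genes (18.2%), 1 of 2 not called and 0 of 1 higher. These matches are descriptions of the letters in the windows, without a test.

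The windows of Lss, Cyp51 and Mvd are shown as examples of genes lower on every tested probe set. Others with a window, such as Mvk and Idi1, were too. That of Hmgcs1 is shown because it alone holds the TCACNCCAC form and was not called. Lss lies at chr10:76531355-76531654 on the plus strand, Cyp51 at chr5:4104648-4104947 and Mvd at chr8:122443373-122443672 on the minus strand, and Hmgcs1 at chr13:119690101-119690400 on the plus strand. Each is written in the direction of the gene, with the motifs found on either strand in capitals (CCAAT reads ATTGG on the other strand, and CACCTG reads CAGGTG).
Lss: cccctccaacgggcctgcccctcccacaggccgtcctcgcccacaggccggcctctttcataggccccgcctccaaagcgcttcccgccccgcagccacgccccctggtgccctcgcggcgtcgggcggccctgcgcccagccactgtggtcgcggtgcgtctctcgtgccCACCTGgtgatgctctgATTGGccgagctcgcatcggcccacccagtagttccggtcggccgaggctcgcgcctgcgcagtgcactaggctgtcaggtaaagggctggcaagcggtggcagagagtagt
Cyp51: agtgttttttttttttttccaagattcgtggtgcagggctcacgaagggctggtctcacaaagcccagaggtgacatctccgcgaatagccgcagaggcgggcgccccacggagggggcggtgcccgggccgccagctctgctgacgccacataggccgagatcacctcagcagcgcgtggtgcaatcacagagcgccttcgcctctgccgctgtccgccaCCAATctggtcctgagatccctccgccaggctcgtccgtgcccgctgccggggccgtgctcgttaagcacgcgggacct
Mvd: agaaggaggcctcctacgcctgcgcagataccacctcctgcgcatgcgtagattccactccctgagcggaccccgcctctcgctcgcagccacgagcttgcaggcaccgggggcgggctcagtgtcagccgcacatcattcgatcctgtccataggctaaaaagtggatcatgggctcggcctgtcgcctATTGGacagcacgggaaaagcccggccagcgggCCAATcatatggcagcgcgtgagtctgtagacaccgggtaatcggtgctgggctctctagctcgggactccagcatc
Hmgcs1: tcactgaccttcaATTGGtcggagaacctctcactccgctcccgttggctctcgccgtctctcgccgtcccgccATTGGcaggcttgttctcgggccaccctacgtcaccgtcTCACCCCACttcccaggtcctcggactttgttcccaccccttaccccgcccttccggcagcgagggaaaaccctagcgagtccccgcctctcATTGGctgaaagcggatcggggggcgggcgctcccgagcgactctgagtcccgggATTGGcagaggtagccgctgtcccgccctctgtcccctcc
The Lss window holds 1 CCAAT box and 1 CACCTG, that of Cyp51 holds 1 CCAAT box, that of Mvd holds 2, and that of Hmgcs1 holds 4 beside its sterol regulatory element.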

How the data were processed

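The authors deposited 1 table of log2 values for 45101 probe sets on 6 Affymetrix arrays, 3 of Zeb1 vector and 3 of control vector cultures, summarised with MAS5 per the submitters' processing notes, which give no version. Taken out of log2, 100% of values were multiples of 0.1 within 0.01 of a multiple, and the trimmed mean (2% from each end) was 500 on every array, so arrays had been scaled. The 2 missing values were set to their array's lowest value. Control probe sets (64) were left out of the tests. Genes were named from the platform annotation, and all 87 member probe sets matched the RefSeq gene table by Entrez ID with 0 symbols changed.

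Signals under the pooled 25th percentile (log2 4.45) were raised to it, and 23391 probe sets that reached their array's median on at least 3 arrays were fitted with limma 3.58.1 in R 4.3.3 (lmFit, eBayes with an intensity trend, Benjamini-Hochberg). The test was checked on simulated data with independent noise and 200 changed probe sets, far fewer than were called here. That check does not show how the test does with many or small changes. Precision is limited by the number of arrays, and the median SE was 0.11 for tested member probe sets and 0.153 for all. Alternatives changed the floor, the filter, the normalization, the variance model, the probe sets used, the fold required, the replicate block and each array in turn, with the floor and filter kept. Named genes were all members, with every array's value for the 20 largest called changes, and related lists by count. The members and lists were chosen with earlier results of these data known.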

Additional observations from a re-analysis of the deposited data

How the results depend on the processing

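Of 26 called genes, 16 kept direction and call under each of the 16 alternatives that read them, the 2-fold rule aside. The 10 others are named above. Msmo1 and Srebf1, among the 16, had no tested probe set left without _s_at, _x_at and _a_at probe sets. With a 2-fold change also required, the probe sets called higher and lower were 0 and 7 in sterol synthesis, 1 and 0 in sensing and transport, 1 higher in fatty acid synthesis and activation and 3 higher in desaturation and elongation. With no filter or no intensity trend 3 probe sets of fatty acid synthesis and activation were called higher, against 7. Without _s_at, _x_at and _a_at probe sets 3 were called higher in sensing and transport, against 6, and 4 in fatty acid synthesis and activation. With the mean of probe sets 3 desaturation and elongation genes were higher, against 5. Leaving out 1 array gave 1 to 2 sterol synthesis probe sets higher and 20 to 23 lower, 3 to 7 higher in fatty acid synthesis and activation, and 6 to 7 higher and 0 to 1 lower in desaturation and elongation, the 1 being a Fads2 probe set (without Zeb1 vector replicate 3). The change of Sc5d was 0.0643 with the mean of probe sets. That of Acsl3, not called, was 0.13 with the mean and 0.32 without _s_at, _x_at and _a_at probe sets. It was 0.0278 without control vector replicate 1, and ran from -0.15 to 0.0278 over arrays left out. The cause was not tested.

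Same-numbered arrays did not deviate together (correlations 0.0186, 0.0124 and -0.0516, against -0.0913 to 0.0742 for arrays of different number). With 3 arrays per group these values cannot tell whether same-numbered cultures were handled together. With the replicate number as a block 1 sterol synthesis probe set was called higher, against 3, and Mvk was not called (adjusted p = 0.0604). No tested member probe set had an array at the floor.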
